A study of Arabidopsis thaliana with 6 samples.

Results

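Xylem pole pericycle cells that had spent 6 h on auxin were set against arrested cells taken at 0 h, and the comparison covers 4 of the 6 arrays of the series and 13647 tested probe sets of the 22810 on each array. The 6 h group held 2 arrays of cells from seedlings grown for 72 h after germination on 10 µM NPA, an inhibitor of polar auxin transport, and then moved for 6 h to 10 µM NAA, a synthetic auxin. The 0 h group held 2 arrays of cells from seedlings of the same line and the same NPA pretreatment that had received no NAA. All cells came from the Arabidopsis thaliana line J0121, an enhancer trap line whose GFP marks the xylem pole pericycle, and were isolated by fluorescence-activated sorting of root protoplasts. The other 2 arrays, from 2 h on NAA, entered the fit for the shared estimate of the spread and are described by their levels near the end. Arrays of seedlings kept on NPA for the extra 6 h were not analysed here. The effects of NAA, of the move from the NPA pretreatment and of seedling age (78 h against 72 h) therefore cannot be told apart. Nothing in the labels beyond the words biological replicate says which plants or sorts the 2 arrays of a group came from.

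The pericycle is the outermost layer of the stele, and the cells beside the xylem poles are the ones that give rise to lateral roots. Without auxin flow they stay in arrest, and auxin triggers a stereotyped entry into the cell cycle that ends in asymmetric divisions. Cells that leave a differentiated state for division are known to raise ribosome production, replication and mitotic genes, while genes for walls of a fixed shape, stress protection, storage and specialised metabolism are typical of cells that have stopped dividing.

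Values are the authors' array signals on a linear scale, and changes are differences of log2(signal + 5), 6 h minus 0 h, with their standard errors (SE, n = 2 arrays in each group). Calls rest on an adjusted p under 0.05 (Benjamini-Hochberg) in a limma fit over all tested probe sets. Of each pair of signals the first is replicate 1. Called higher at 6 h were 2297 probe sets (16.8% of those tested), and called lower were 2315 (17.0%), together 33.8%. Of the 4612 calls, those with 1 named locus numbered 1259 higher and 1135 lower. All 2297 higher calls and 2314 of the 2315 lower calls had arrays that did not overlap between the groups, and 1267 and 1090 of them were called in each of 4 fits that left out 1 array. Most lists below are made of genes with a symbol, and among the 1048 tested loci with a symbol 148 were higher (14.1%) and 244 lower (23.3%), with a median change of -0.22, so the counts of the lists are to be read against those shares.

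Array medians were 80.8 and 95.0 signal units at 6 h, against 109.8 and 83.4 at 0 h, and the replicates correlated at r = 0.92 at 6 h and 0.87 at 0 h. Over all tested probe sets the median change was -0.11, or 0.01 with arrays centred on their medians. Hybridisation controls were brighter on 1 array of each group, so brightness of the controls crossed the groups. Actin is read by control probe sets at either end of the transcript, and in the older pair the 3' over 5' ratio was 4.48 and 3.84 at 6 h, against 2.22 and 1.40 at 0 h. In the newer pair it was 0.56 and 0.57 at 6 h, against 1.32 and 0.57 at 0 h. The older ubiquitin pair gave 8.81 and 10.7 at 6 h, against 8.31 and 5.99 at 0 h. Groups overlapped in the newer ubiquitin pair and in both GAPDH pairs. Signs of labelling or RNA quality therefore moved with time in the older actin and ubiquitin pairs, and their part in the results was not tested.

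Few defining markers of root cell types could be read by name. Of 10 xylem pole pericycle and stele markers 1 was named on the array: LBD16, a regulator of lateral root initiation, read 1167 and 737 signal units at 6 h, against 543 and 476 at 0 h, a change that missed the threshold (adjusted p = 0.0658, limma). Of 12 endodermis markers 2 were named, and they went opposite ways, with a summed signal of 534 and 344 at 6 h, against 757 and 883 at 0 h. GSO1, a receptor kinase that endodermal cells use to seal the Casparian strip, had 75.6 and 26.1 units at 6 h, against 601 and 829 at 0 h. Its change was -3.83 ± 0.50 on the log2 scale, and AT4G28100 rose by 1.99 ± 0.49. The summed signal of 2 of 3 cortex markers was 77.8 and 89.9 at 6 h, against 174 and 153 at 0 h, that of 2 of 8 epidermis markers 73.8 and 156 at 6 h, against 119 and 87.0 at 0 h, and the 1 named phloem marker of 8 read 41.3 and 120 at 6 h, against 53.8 and 56.0 at 0 h. None of the 13 xylem, 5 root cap or 10 green tissue markers had a probe set with 1 gene. In sorted bulk samples, fewer cells of a type and less RNA per cell cannot be told apart, and what other cells contributed to the losses described below was not tested.

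Probe sets called higher held 46.8% and 45.7% of the summed signal at 6 h, against 12.8% and 12.4% at 0 h, and those called lower held 7.91% and 7.66% at 6 h, against 32.9% and 33.9% at 0 h. These shares describe probe sets that the same arrays chose, so they carry no test. Changes of 2 or more log2 units numbered 1051 higher and 882 lower, and changes of 5 or more 44 higher and 54 lower. On both 6 h arrays 257 of the probe sets called lower read under 58 signal units, a level below which 90.1% of probe sets were not called present on the 1 array that has detection calls. For 234 of those called higher, both 0 h arrays read under it.

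**Figure D1:**
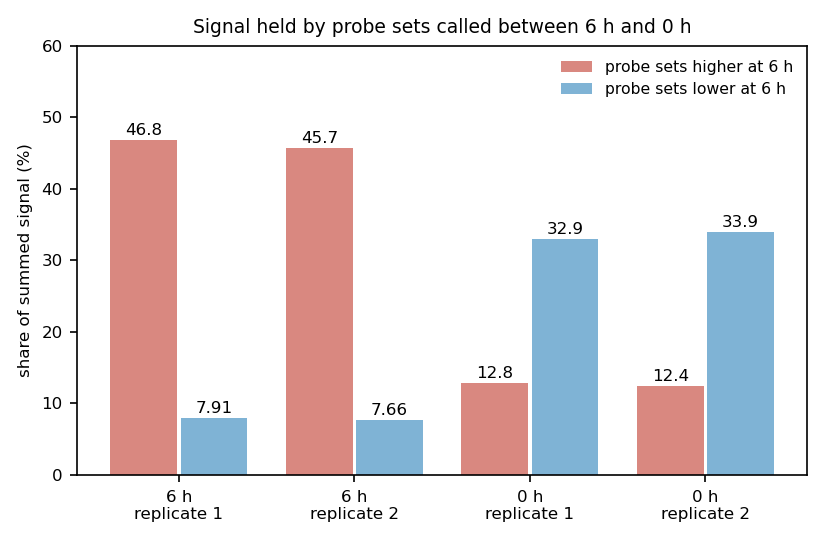
Share of the summed signal (percent, vertical axis) held on each array by probe sets called higher (red) and called lower (blue) at 6 h; each bar is 1 array. The higher set held 46.8% and 45.7% at 6 h, against 12.8% and 12.4% at 0 h, and the lower set 7.91% and 7.66% at 6 h, against 32.9% and 33.9% at 0 h.

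The losses of most signal fell on a few very abundant transcripts. The locus AT1G48750, which the tables used here do not name, had 221 and 336 units at 6 h, against 40068 and 13834 at 0 h. It fell by 6.41 ± 0.46 (adjusted p = 9.76e-06, limma). AT3G53980 had 43.2 and 527 units at 6 h, against 21092 and 13803 at 0 h. LCR69, a small cysteine-rich peptide of the defensin-like type, had 4239 and 3517 units at 6 h, against 25397 and 13782 at 0 h. Its change was -2.27 ± 0.40. In each case both 6 h arrays were lower than both 0 h arrays, as for nearly all lower calls. LCR69 was still among the brighter transcripts at 6 h. AT4G30450 had 7.1 and 7.9 units at 6 h, against 10475 and 8147 at 0 h, which at -9.53 ± 0.39 was the largest fall among loci with 1 gene and a mean of 500 units or more in either group. For a gene as dim as this at 6 h the size of the fall rests on the pseudocount: it was -10.05 with a pseudocount 4 times smaller and -8.39 with one 4 times larger. A floor of 58 units was therefore set, below which 90.1% of probe sets were not called present on the 1 array with detection calls. Against it AT4G30450 was at least 159-fold lower. For other called genes below it on both arrays of 1 group, such a bound stands in brackets beside the fitted change, whose size rests on the pseudocount. PMEAMT, a phosphoethanolamine methyltransferase on the way to phosphocholine, had 4019.9 and 3430.4 units at 6 h, against 11981 and 9596 at 0 h. It fell by 1.53 ± 0.33. Of the 15 largest losses of signal, 6 lost their call when 1 array was left out, without replicate 1 at 6 h for COR47 (adjusted p = 0.283), cICDH (adjusted p = 0.0541), PRXR1 (adjusted p = 0.0654) and AT1G22410 (adjusted p = 0.0873), without replicate 2 at 6 h for cICDH (adjusted p = 0.0921), PRXR1 (adjusted p = 0.0885), AT3G02360 (adjusted p = 0.0604) and AT5G39570 (adjusted p = 0.0525), and without replicate 2 at 0 h for COR47 (adjusted p = 0.0847).

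On the gaining side the 15 largest gains of signal belonged to transcripts already bright at 0 h, all of them known here by locus only. AT4G17390 had 18584 and 22834 units at 6 h, against 5309 and 3409 at 0 h. Its change was 2.27 ± 0.38. AT5G15200 had 20952 and 24888 units at 6 h, against 7209 and 6449 at 0 h. It rose by 1.74 ± 0.35. AT3G09200 led with 22479.6 and 32951 units at 6 h, against 12679.5 and 9313 at 0 h. Of the 15, 5 lost their call when 1 array was left out, without replicate 1 at 6 h for AT1G52300 (adjusted p = 0.121) and AT4G16720 (adjusted p = 0.0756), without replicate 2 at 6 h for AT3G09200 (adjusted p = 0.16), AT2G41840 (adjusted p = 0.0907), AT1G67430 (adjusted p = 0.083), AT1G52300 (adjusted p = 0.143) and AT4G16720 (adjusted p = 0.0737), and without replicate 2 at 0 h for AT3G09200 (adjusted p = 0.0623), AT1G67430 (adjusted p = 0.0523), AT1G52300 (adjusted p = 0.175) and AT4G16720 (adjusted p = 0.0615). The largest rises by log2 change included transcripts that were dim at 0 h: AT4G15830 had 4404 and 4198 units at 6 h, against 58.4 and 32.4 at 0 h, AT1G03820 had 3442 and 4682 units at 6 h, against 42.1 and 47.0 at 0 h, and AT3G28420 had 1856 and 786 units at 6 h, against 4.5 and 3.1 at 0 h. All 15 largest rises and all 15 largest falls by log2 change stayed called whichever of the 4 arrays was left out.

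**Figure D2:**
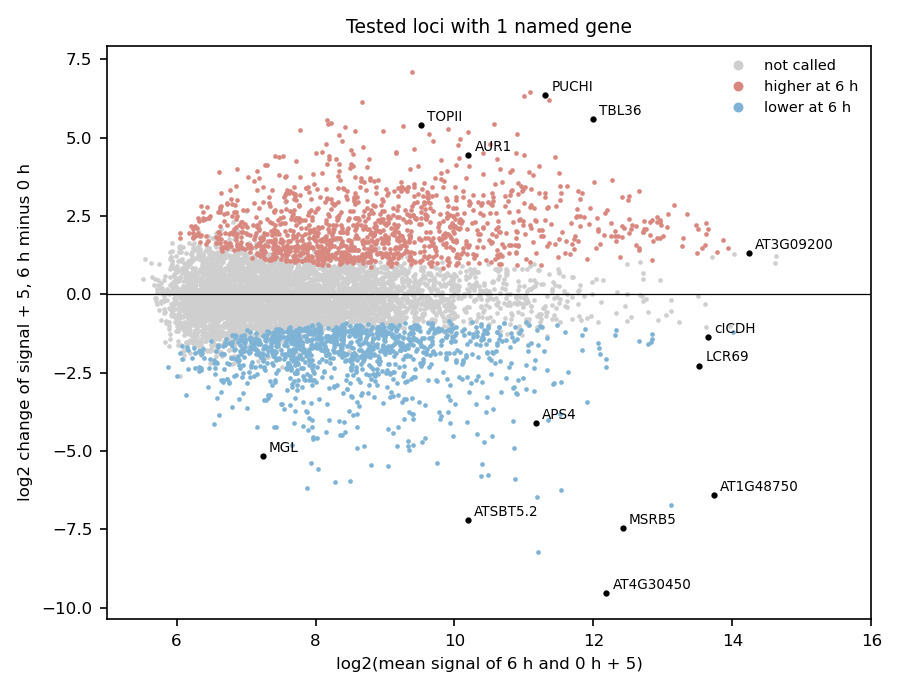
Log2 change (6 h minus 0 h, vertical axis) against log2 of the mean signal of 6 h and 0 h plus 5 (horizontal axis) for tested loci with 1 named gene; red points were called higher, blue points lower and grey points neither, and black points carry names. Large losses run through to the brightest transcripts (AT1G48750 at -6.41, MSRB5 at -7.45), whereas the brightest transcripts called higher changed by less (AT3G09200 at 1.32).

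Wall hardening and wall-bound enzymes were among the functions that receded. Class III peroxidases oxidise phenolics in the wall, where some of them polymerise lignin, and of 5 tested members 4 were lower and 0 higher (median -2.36). AT5G66390, which encodes PRX72, a peroxidase of lignin formation, had 328 and 2.6 units at 6 h, against 5196 and 3809.6 at 0 h. The 6 h arrays disagreed with each other by a wide margin, yet both lay far below both 0 h arrays, and PRX72 fell by 6.47 ± 1.19 (adjusted p = 0.0017, limma). AT2G41480, which encodes PRX25, had 105 and 126 units at 6 h, against 1140.0 and 429 at 0 h. Its change was -2.55 ± 0.45. Prx37 had 113 and 35.4 units at 6 h, against 256 and 478 at 0 h. It fell by 2.36 ± 0.50. The member called neither way, AT5G64120, had a change of 0.68 ± 0.50. HCT, the hydroxycinnamoyl transferase that opens the branch to most monolignols, had 326 and 475 units at 6 h, against 2564 and 3956 at 0 h. It fell by 3.00 ± 0.37, CCR2, a cinnamoyl-CoA reductase, fell by 1.04 ± 0.32, and CCOAMT, a methyltransferase of the same pathway, had a change of -0.56 ± 0.59. CCR2 lost its call without replicate 1 at 6 h, without replicate 2 at 6 h and without replicate 2 at 0 h. The 3 tested phenylpropanoid genes then had fewer lower calls than with all arrays. PRXR1, a class III peroxidase that fell by 1.26 ± 0.33, lost its call without either 6 h array, and the peroxidase list had fewer lower calls in those fits. Without the filter on mean signal, 3 of the 7 peroxidases on the array were lower (median -1.26).

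Secreted peptidases and peptides of the wall space went the same way. Subtilases are serine proteases that mostly act outside the cell, and 2 of 4 tested members fell. ATSBT5.2 had 10.7 and 10.8 units at 6 h, against 2126 and 2521 at 0 h. Its change was -7.20 ± 0.40 (at least 39.9-fold, -7.59 with the smaller pseudocount and -6.25 with the larger). SBT4.12 had 41.5 and 66.9 units at 6 h, against 356 and 506 at 0 h. It fell by 2.89 ± 0.42. S1P, a site-1 protease of the Golgi, had a change of -0.17 ± 0.38. All 4 tested defensin-like peptides of 12 on the array were lower, in a list added after values were seen. The other 8 lay below the filter on mean signal. The median change was -3.29 for the tested members, against -1.06 for the list without the filter. The tested members therefore do not stand for the whole list. LCR68 had 351 and 250.1 units at 6 h, against 5519 and 4310.1 at 0 h. Its change was -4.02 ± 0.32 (adjusted p = 1.23e-05, limma). The calls of PDF2.1 (-3.51) and PDF2.5 (-3.06) were lost without replicate 2 at 6 h for PDF2.1 (adjusted p = 0.0525) and PDF2.5 (adjusted p = 0.26) and without replicate 1 at 0 h for PDF2.1 (adjusted p = 0.0661) and PDF2.5 (adjusted p = 0.212), and 2 members were called lower in either of those fits. PMEPCRF, a pectin methylesterase that changes how pectin sets, had 153 and 163 units at 6 h, against 1162 and 1049 at 0 h. It fell by 2.76 ± 0.31. The other tested pectin enzyme, ATPMEPCRB, had a change of 0.74 ± 0.44. Of 7 tested genes of the cellulose synthase superfamily and the COBRA family 3 were lower and 0 higher. CSLC04, which makes the glucan backbone of xyloglucan, had 669.7 and 609.9 units at 6 h, against 2339 and 2298 at 0 h. Its change was -1.85 ± 0.32. CSLA03, of the mannan synthase group, fell by 1.80 ± 0.62, and COB, a membrane-anchored protein that orients cellulose deposition, by 1.47 ± 0.42. Both lost their calls without replicate 1 at 6 h for COB (adjusted p = 0.125), without replicate 2 at 6 h for CSLA03 (adjusted p = 0.258), without replicate 1 at 0 h for CSLA03 (adjusted p = 0.0513), and without replicate 2 at 0 h for CSLA03 (adjusted p = 0.171) and COB (adjusted p = 0.118), and the list had 1 lower call without replicate 2 at 0 h or with arrays centred on their medians.

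**Figure D3:**
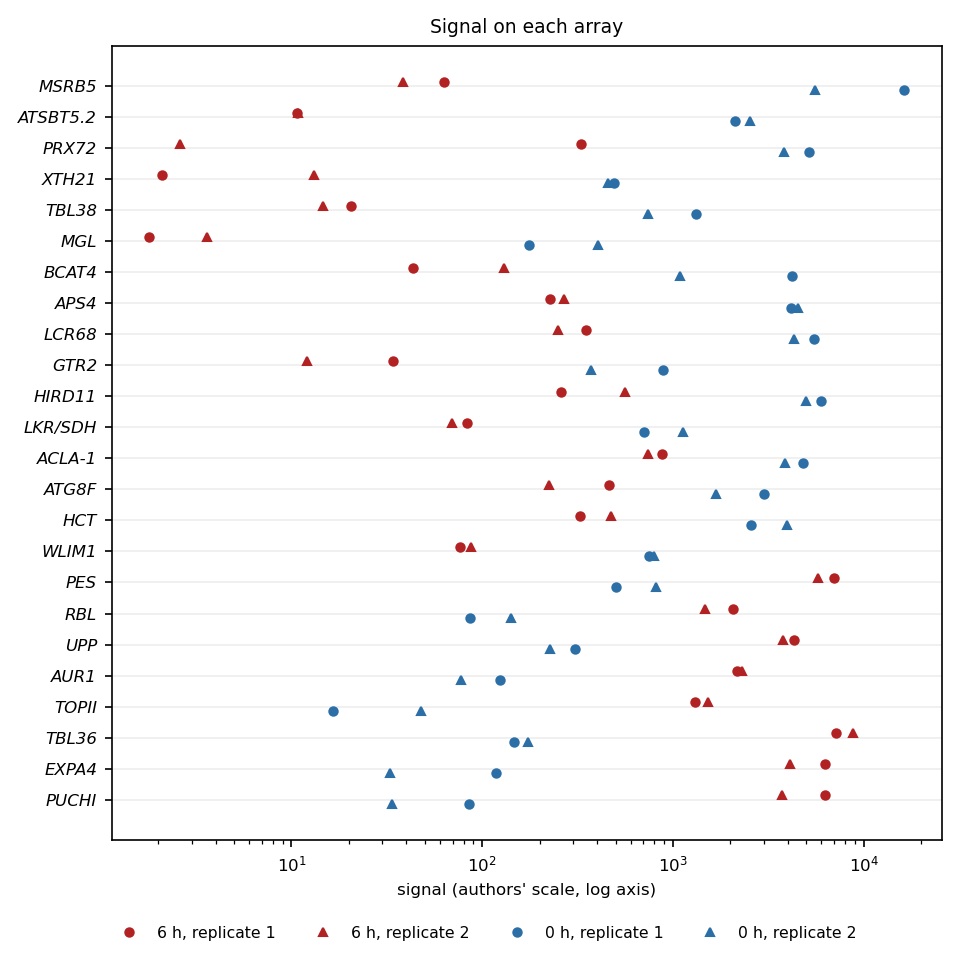
Signal on each of the 4 arrays (horizontal axis, authors' scale, logarithmic) for 24 genes of the lists; red marks are 6 h and blue marks 0 h, circles replicate 1 and triangles replicate 2. The 6 h and 0 h arrays do not overlap for any gene shown, as for nearly all calls. PRX72 has the widest gap between replicates at 6 h (328 and 2.6 signal units), and vertical offsets within a row have no meaning.

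Transport gave few calls. Of 6 tested nitrogen, phosphate and sulphate transporters 3 were lower and 1 higher. GTR2 and GTR1, which carry glucosinolates across the plasma membrane, had the clear losses: GTR2 had 34.0 and 12.0 units at 6 h, against 889 and 373 at 0 h. It fell by 4.50 ± 0.53 (at least 9.9-fold). GTR1 had 329 and 555 units at 6 h, against 2408 and 2581 at 0 h. Its change was -2.53 ± 0.38. AT2G26690, which encodes NPF6.2 of the nitrate and peptide family, fell by 1.31 ± 0.39, a call lost without replicate 1 at 6 h (adjusted p = 0.15) and without replicate 2 at 0 h (adjusted p = 0.0601). AT1G59740, which encodes NPF4.3 of the same family, had 3384 and 3287 units at 6 h, against 654 and 782 at 0 h. It rose by 2.21 ± 0.35. NRT2.5, a nitrate transporter, had a change of 0.05 ± 0.56. Among 7 tested SWEET sugar carriers 1 was called: SWEET11, a sucrose exporter, had 73.5 and 34.8 units at 6 h, against 223 and 282 at 0 h. Its change was -2.19 ± 0.49. The other 6 had changes between -0.83 (SWEET8) and 0.87 (SWEET6). Of 4 tested potassium and metal transporters, ZIP6 of the zinc and iron family had 312 and 385 units at 6 h, against 1451 and 849.5 at 0 h. It fell by 1.67 ± 0.34. The others were not called. The shares of lower calls in the sugar and metal lists, 1 of 7 and 1 of 4, do not stand out from the 23.3% of loci with a symbol. Aquaporins, ABC transporters and MATE carriers had at most 1 tested member among probe sets with 1 gene.

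Breakdown of amino acids was lower across several pathways. In a list added after values were seen, 12 of 16 tested genes were lower and 0 higher (median -1.91), and 11 or 12 were lower whichever array was left out. MGL, the methionine gamma-lyase that splits methionine, had 1.8 and 3.6 units at 6 h, against 176 and 404 at 0 h. Its change was -5.15 ± 0.75 (at least 4.6-fold, adjusted p = 0.00041, limma). AT4G33150, the locus of LKR/SDH, the bifunctional first enzyme of lysine breakdown, had 83.7 and 69.6 units at 6 h, against 706 and 1129.6 at 0 h. It fell by 3.46 ± 0.39. For both enzymes the 6 h arrays lay close together and well below the 0 h arrays. Leucine breakdown was lower at consecutive steps: IVD, isovaleryl-CoA dehydrogenase, had 147 and 122 units at 6 h, against 898 and 723 at 0 h. Its change was -2.54 ± 0.37. MCCA and MCCB, the subunits of methylcrotonyl-CoA carboxylase, fell by 2.64 ± 0.47 and 2.05 ± 0.40, and ETFALPHA, which takes the electrons from IVD, fell by 2.91 ± 0.40. ALDH6B2, of valine breakdown, fell by 1.86 ± 0.33, and DELTA-OAT, ornithine aminotransferase, by 1.78 ± 0.34. In the recovery of nitrogen from ureides, AAH, allantoate amidohydrolase, fell by 2.90 ± 0.47 and ALN, allantoinase, by 1.42 ± 0.49, and ALN lost its call without replicate 1 at 6 h (adjusted p = 0.326), without replicate 1 at 0 h (adjusted p = 0.111), and without replicate 2 at 0 h (adjusted p = 0.096). ETFQO, which hands the electrons on to the respiratory chain, had a change of -0.62 ± 0.41, and URE, urease, of -0.73 ± 0.54.

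Genes of acetyl-CoA supply were lower, and those of the citrate cycle were so in part. All 4 tested genes of ATP-citrate lyase, which makes acetyl-CoA in the cytosol from citrate, were lower, in a list added after values were seen. ACLA-1 had 878 and 742 units at 6 h, against 4786 and 3845 at 0 h. It fell by 2.40 ± 0.31. ACLA-3 fell by 2.97 ± 0.45, ACLA-2 by 1.75 ± 0.35, and ACLB-1 by 1.22 ± 0.38. The call of ACLB-1 was lost without replicate 1 at 6 h (adjusted p = 0.217), without replicate 1 at 0 h (adjusted p = 0.0691), and without replicate 2 at 0 h (adjusted p = 0.0697). Of 10 tested genes of the citrate cycle and related dehydrogenases 7 were lower and 0 higher (median -1.16), but this count came to 3 without replicate 1 at 6 h and 2 without replicate 2 at 6 h, and 4 with arrays centred on their medians. ICDH, an isocitrate dehydrogenase, kept its call in those fits: it had 122 and 68.4 units at 6 h, against 426 and 307 at 0 h. Its change was -1.93 ± 0.39. Succinate dehydrogenase was represented by SDH1-1 (-1.68), SDH2-2 (-1.36) and the uncalled SDH2-1 (-0.65 ± 0.30), and the first pair lost their calls without replicate 1 at 6 h for SDH1-1 (adjusted p = 0.051) and without replicate 2 at 6 h for SDH2-2 (adjusted p = 0.0631). Among 5 tested glycolysis and fermentation genes only PDC2, pyruvate decarboxylase, was called, with 220.2 and 309.6 units at 6 h, against 562 and 513 at 0 h. That call was lost without replicate 1 at 6 h (adjusted p = 0.219), without replicate 2 at 6 h (adjusted p = 0.0548), without replicate 1 at 0 h (adjusted p = 0.0833), and without replicate 2 at 0 h (adjusted p = 0.0567). ENOC, the cytosolic enolase, had a change of 0.15 ± 0.30 and PGM, phosphoglucomutase, of 0.46 ± 0.33. Of 7 tested aldehyde dehydrogenases 4 were lower and 0 higher, or 3 to 4 lower with an array left out. ALDH10A9, of the betaine aldehyde group, had 541 and 588 units at 6 h, against 2353 and 2251 at 0 h. It fell by 2.02 ± 0.29. ALDH7B4, a stress-induced member, fell by 1.63 ± 0.32.

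Sulphur assimilation was lower along the pathway. In a list added after values were seen 8 of 9 tested genes were lower and 0 higher (median -1.49), or 6 to 7 lower with an array left out. The first step is the activation of sulphate by ATP sulphurylase, and its gene APS4 had 228 and 268 units at 6 h, against 4159.8 and 4545 at 0 h. Its change was -4.11 ± 0.30 (adjusted p = 1.01e-05, limma). Its paralogue APS3 had 284 and 279 units at 6 h, against 1081 and 737 at 0 h. It fell by 1.65 ± 0.32. SIR, sulphite reductase, had 252 and 409 units at 6 h, against 1495 and 1019.5 at 0 h. Its change was -1.92 ± 0.38. HL, an HAL2-like phosphatase of the same pathway's side product, fell by 2.21 ± 0.32, and CBL, the cystathionine beta-lyase that leads on to methionine, by 1.48 ± 0.30. Every one of these was lower on both 6 h arrays than on both 0 h arrays, as were nearly all probe sets called lower. MMT, methionine S-methyltransferase, and OASA2, of the cysteine synthase family, fell by 1.50 ± 0.36 and 1.31 ± 0.45, and lost their calls without replicate 1 at 6 h for MMT (adjusted p = 0.0947) and OASA2 (adjusted p = 0.151), without replicate 2 at 6 h for OASA2 (adjusted p = 0.0999), without replicate 1 at 0 h for OASA2 (adjusted p = 0.182), and without replicate 2 at 0 h for MMT (adjusted p = 0.05). HMT-1, a homocysteine methyltransferase, had a change of -0.21 ± 0.38.

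Glucosinolates, the sulphur-rich defence compounds of the cabbage family, were represented by synthesis, transport and storage genes, and 8 of 11 tested members of 16 on the array were lower and 0 higher (median -2.40). BCAT4, the aminotransferase that begins the elongation of methionine for aliphatic glucosinolates, had 43.6 and 131 units at 6 h, against 4221 and 1088 at 0 h. It fell by 4.73 ± 0.62 (adjusted p = 0.000212, limma). UGT74B1, the glucosyltransferase of the glucosinolate core, had 265 and 291 units at 6 h, against 2821 and 1439.7 at 0 h. Its change was -2.84 ± 0.43. MYC3, a transcription factor that activates these genes, had 63.3 and 36.5 units at 6 h, against 389 and 196 at 0 h. It fell by 2.40 ± 0.52. The glucosinolate carriers GTR1 and GTR2 were given above under transport. A gene could enter more than 1 list, so counts of different lists are not separate losses. Without the filter on mean signal, 8 of the 16 glucosinolate genes were lower (median -1.73). The glucosinolate group also covers ER bodies, compartments of the root and hypocotyl that store beta-glucosidases. PYK10, their main beta-glucosidase, had 370.1 and 892 units at 6 h, against 3046 and 2753 at 0 h. Its change was -2.32 ± 0.46. JAL34, a lectin of the PYK10 complex, had 243 and 488 units at 6 h, against 1965 and 4878 at 0 h. It fell by 3.15 ± 0.47. NAI2, a structural protein of ER bodies, fell by 1.75 ± 0.50, a call lost without replicate 1 at 6 h (adjusted p = 0.139) and without replicate 2 at 0 h (adjusted p = 0.0894), and NAI1, their transcriptional regulator, had a change of -1.17 ± 0.53. The list was added after values were seen, and 7 or 8 members were called lower with an array left out. Among 10 tested beta-glucosidases in all, 4 were lower and 0 higher, of which BGLU46, a monolignol glucosidase, had 114 and 96.4 units at 6 h, against 788 and 1148 at 0 h. Its change was -3.12 ± 0.34.

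Conjugation and detoxification enzymes added a broad but partial loss. Of 22 tested UDP-glycosyltransferases (51 on the array), which attach sugars to small molecules, 11 were lower and 0 higher (median -1.15), but 7 with either 6 h array left out or with centred arrays. UGT76B1, which glucosylates defence signals, had 97.1 and 60.4 units at 6 h, against 549 and 1105 at 0 h. It fell by 3.26 ± 0.56. GT72B1 had 384 and 282 units at 6 h, against 2739 and 3096 at 0 h. Its change was -3.13 ± 0.35. The members left uncalled included UGT76C1 and UGT76C2, which glucosylate cytokinins, with changes of 0.08 ± 0.54 and 0.56 ± 0.73. Of 8 tested glutathione transferases 6 were lower and 0 higher (median -1.70), with 4 to 7 lower when an array was left out. GSTU20 had 74.3 and 40.9 units at 6 h, against 854 and 595 at 0 h. It fell by 3.57 ± 0.38. GSTU27 had 110.2 and 101 units at 6 h, against 2022 and 798 at 0 h. Its change was -3.53 ± 0.43. The calls of GSTU18 (-1.73) and GSTL3 (-1.67) were lost without replicate 1 at 6 h for GSTU18 (adjusted p = 0.278) and GSTL3 (adjusted p = 0.311) and without replicate 2 at 0 h for GSTU18 (adjusted p = 0.271) and GSTL3 (adjusted p = 0.207). CYP71B37 was the 1 called member of 4 tested cytochrome P450s. It had 1.6 and 21.8 units at 6 h, against 484 and 279.8 at 0 h. It fell by 4.81 ± 0.68 (at least 6.3-fold).

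Protection against oxidation followed the same direction. Methionine sulphoxide reductases of the B type repair oxidised methionine in proteins, and 4 of 5 tested reductases were lower and 0 higher, or 3 to 4 lower with an array left out. MSRB5 had 62.8 and 38.6 units at 6 h, against 16318 and 5527 at 0 h. Its change was -7.45 ± 0.51 (adjusted p = 6.41e-06, limma). MSRB9 had 68.0 and 194 units at 6 h, against 1672 and 1545 at 0 h. It fell by 3.74 ± 0.46. MSRA5, of the A type, had a change of 0.26 ± 0.49. Of 11 tested glyoxalase and glutathione redox genes 7 were lower and 0 higher, but 3 without replicate 1 at 6 h. GRXC1, a glutaredoxin, had 56.8 and 27.4 units at 6 h, against 498 and 206 at 0 h. Its change was -2.87 ± 0.51 (at least 5.5-fold). GLX2-1, of the enzymes that clear methylglyoxal, fell by 1.96 ± 0.40. GRXC2, the closest relative of GRXC1 in the list, had a change of 0.33 ± 0.33. Both lists were added after values were seen.

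Degradation and the vacuole formed a further group of losses. The ATG8 proteins are small ubiquitin-like proteins that coat growing autophagosomes, and in a list of 11 tested autophagy genes 7 were lower and 1 higher (median -1.47). ATG8F had 465 and 223 units at 6 h, against 3017 and 1674 at 0 h. It fell by 2.78 ± 0.43. APG8H fell by 2.05 ± 0.39. ATG8G ran against its relatives, with 1129.8 and 734 units at 6 h, against 281 and 177 at 0 h. Its change was 2.00 ± 0.38. ATG8E and ATG8C were not called and had changes of -1.90 ± 0.69 and -1.47 ± 0.63. The group count was unstable: lower calls numbered 2 without replicate 1 at 6 h, 4 without replicate 2 at 6 h and 4 without replicate 2 at 0 h, 8 without replicate 1 at 0 h, and 4 with centred arrays. ATG8H (-2.13) and ATG3 (-1.51), the enzyme that links ATG8 to lipid, were among the calls that were lost, without replicate 1 at 6 h for ATG8H (adjusted p = 0.0507) and ATG3 (adjusted p = 0.102), without replicate 2 at 6 h for ATG3 (adjusted p = 0.0638), and without replicate 2 at 0 h for ATG3 (adjusted p = 0.117).

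The vacuolar proton pump and vacuolar proteases were lower in part. Of 5 tested pump genes 4 were lower and 0 higher. VHA-A2 and VHA-A3, membrane subunits of the pump on the vacuole, fell: VHA-A2 had 230.5 and 257 units at 6 h, against 1591 and 794 at 0 h. It fell by 2.19 ± 0.43. VHA-A3 had 412 and 331 units at 6 h, against 1589.9 and 1194 at 0 h. Its change was -1.89 ± 0.34. Their relative VHA-A1, which sits on the trans-Golgi network, had 144 and 101 units at 6 h, against 201 and 160.5 at 0 h, a change of -0.56 ± 0.40, and the difference between the relatives was not tested. AT3G58730, which encodes VHA-D, and AT4G02620, which encodes VHA-F, fell by 1.72 ± 0.42 and 1.24 ± 0.32 but lost their calls without replicate 2 at 6 h for VHA-D (adjusted p = 0.0543) and VHA-F (adjusted p = 0.0952) and without replicate 2 at 0 h for VHA-D (adjusted p = 0.0572), so that 2 pump genes were lower without replicate 2 at 6 h. Of 19 tested proteases and carboxypeptidases (36 on the array) 9 were lower and 0 higher, but 3 without replicate 1 at 6 h. SCPL45, a serine carboxypeptidase-like protein, had 146 and 227 units at 6 h, against 1361 and 1003 at 0 h. It fell by 2.65 ± 0.34. APA1, an aspartic protease, had 1651 and 2058 units at 6 h, against 6922 and 6883 at 0 h. Its change was -1.90 ± 0.32. GAMMA-VPE, a vacuolar processing enzyme, fell by 1.74 ± 0.56, a call lost without replicate 1 at 6 h (adjusted p = 0.191), without replicate 2 at 6 h (adjusted p = 0.0573), and without replicate 2 at 0 h (adjusted p = 0.236). All 3 lists were added after values were seen.

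Membrane sorting and ubiquitin lists lay near the background shares, with single genes that stood out in opposite directions. Of 10 tested ESCRT and VPS genes, which sort membrane proteins to the vacuole, 3 were lower and 1 higher. SNF7.1 had 156 and 122 units at 6 h, against 671 and 521 at 0 h. It fell by 2.06 ± 0.35. VPS2.2 had 223 and 446 units at 6 h, against 20.5 and 45.2 at 0 h. Its change was 3.16 ± 0.54 (at least 5.4-fold). VPS22 and VPS2.1 lost their calls without replicate 1 at 6 h for VPS22 (adjusted p = 0.143) and VPS2.1 (adjusted p = 0.0743), without replicate 2 at 6 h for VPS22 (adjusted p = 0.111) and VPS2.1 (adjusted p = 0.195), and without replicate 1 at 0 h for VPS22 (adjusted p = 0.109) and VPS2.1 (adjusted p = 0.107), and the list had 1 lower call without replicate 2 at 6 h, without replicate 1 at 0 h, with centred arrays or with the hybridisation controls as a block. Of 8 tested plant U-box ubiquitin ligases 2 were lower and 1 higher: PUB24 had 98.9 and 116 units at 6 h, against 849.8 and 806 at 0 h. It fell by 2.89 ± 0.32. PUB19 fell by 2.75 ± 0.35, and PUB23, of the same subgroup of stress-related ligases, had 2663 and 2714 units at 6 h, against 886 and 926 at 0 h. Its change was 1.56 ± 0.30. Higher calls in this list numbered 2 without replicate 1 at 6 h, 3 without replicate 1 at 0 h and 2 without replicate 2 at 0 h. UBC20, the conjugating enzyme that works with the anaphase-promoting complex, had 3389 and 3229 units at 6 h, against 300.4 and 155 at 0 h. It rose by 3.90 ± 0.37, the 1 higher call among 11 tested conjugating enzymes. The 3 members called lower, UBC30 (-1.26), UBC29 (-1.12) and UBC32 (-1.03), lost their calls without replicate 1 at 6 h for UBC30 (adjusted p = 0.118), UBC29 (adjusted p = 0.121) and UBC32 (adjusted p = 0.288), without replicate 2 at 6 h for UBC29 (adjusted p = 0.0619), without replicate 1 at 0 h for UBC32 (adjusted p = 0.0908), and without replicate 2 at 0 h for UBC29 (adjusted p = 0.0703) and UBC32 (adjusted p = 0.0717). Of 12 tested ubiquitin-specific proteases 2 were higher, UBP23 (1.36) and UBP21 (1.63), and both calls were lost without replicate 1 at 6 h for UBP21 (adjusted p = 0.251), without replicate 2 at 6 h for UBP23 (adjusted p = 0.113) and UBP21 (adjusted p = 0.0612), and without replicate 1 at 0 h for UBP23 (adjusted p = 0.052) and UBP21 (adjusted p = 0.124).

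Most tested genes of the interphase cytoskeleton were lower. Of 13 tested interphase cytoskeleton genes, in a list added after values were seen, 10 were lower and 1 higher (median -1.60), but 5 without replicate 1 at 6 h, 6 without replicate 2 at 6 h and 6 without replicate 1 at 0 h. WLIM1, a LIM protein that bundles actin filaments, had 76.8 and 87.4 units at 6 h, against 753 and 791 at 0 h. Its change was -3.16 ± 0.33 (adjusted p = 5.00e-05, limma). Its relatives WLIM2a and WLIM2b fell by 2.49 ± 0.35 and 1.47 ± 0.31. AT3G23090, which encodes WDL3, a microtubule-binding protein of elongating cells, fell by 1.94 ± 0.37. SPR1, which keeps cortical microtubules in order during straight growth, and its relatives SP1L3 and SP1L4 fell by 1.40 ± 0.38, 1.71 ± 0.48 and 1.77 ± 0.56, and their calls were lost without replicate 1 at 6 h for SPR1 (adjusted p = 0.104) and SP1L4 (adjusted p = 0.15), without replicate 2 at 6 h for SPR1 (adjusted p = 0.0526), SP1L3 (adjusted p = 0.151) and SP1L4 (adjusted p = 0.0566), and without replicate 1 at 0 h for SPR1 (adjusted p = 0.0788), SP1L3 (adjusted p = 0.119) and SP1L4 (adjusted p = 0.2). NET3A, of an actin-binding family, was the 1 member called higher (2.30), a call lost without replicate 1 at 6 h (adjusted p = 0.198), without replicate 2 at 6 h (adjusted p = 0.147), and without replicate 2 at 0 h (adjusted p = 0.136). ATMAP65-6, of the family that cross-links microtubules, stands not in this list but among the 4 tested kinesins and microtubule proteins grouped under mitosis, of which 2 were higher and 2 lower. It had 98.2 and 135 units at 6 h, against 979 and 511 at 0 h. It fell by 2.57 ± 0.39.

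Stress and plastid proteins gave small lists. Of 8 tested dehydrins, LEA and cold-regulated proteins 3 were lower and 0 higher. AT1G54410, which encodes the dehydrin HIRD11, had 259 and 560.2 units at 6 h, against 5962 and 4954 at 0 h. Its change was -3.81 ± 0.38. COR47, one of the brightest transcripts at 0 h, had 7579.5 and 12815 units at 6 h, against 20356 and 25275 at 0 h. It fell by 1.20 ± 0.39. LEA4-5 fell by 2.61 ± 0.87. Both lost their calls without replicate 1 at 6 h for COR47 (adjusted p = 0.283) and LEA4-5 (adjusted p = 0.314) and without replicate 2 at 0 h for COR47 (adjusted p = 0.0847) and LEA4-5 (adjusted p = 0.296), and lower calls numbered 1 without replicate 1 at 6 h, 5 without replicate 1 at 0 h and 1 without replicate 2 at 0 h. Of 4 tested nuclear-encoded photosynthesis proteins 3 were lower and 0 higher, but 1 without replicate 1 at 6 h and 1 without replicate 2 at 0 h. PSBW, a small subunit of photosystem II, had 65.5 and 46.1 units at 6 h, against 444 and 258 at 0 h. Its change was -2.52 ± 0.47. LHCB4.1, an antenna protein, had 13.7 and 119.8 units at 6 h, against 239 and 435 at 0 h, and lost its call without replicate 1 at 6 h (adjusted p = 0.0681) and without replicate 2 at 0 h (adjusted p = 0.0715). PSBY (-1.21), another photosystem II subunit, lost its call without replicate 1 at 6 h (adjusted p = 0.158), without replicate 2 at 6 h (adjusted p = 0.0935), without replicate 1 at 0 h (adjusted p = 0.0521), and without replicate 2 at 0 h (adjusted p = 0.116). No green tissue marker could be read, so their source in the sort was not tested.

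Transcription factor families gave few calls. ZAP1, a WRKY factor, had 46.3 and 72.1 units at 6 h, against 337 and 549 at 0 h. It fell by 2.79 ± 0.40. It was the 1 lower call among 5 tested. WRKY22 was the 1 higher call (1.00), lost without replicate 1 at 6 h (adjusted p = 0.155), without replicate 2 at 6 h (adjusted p = 0.102), and without replicate 1 at 0 h (adjusted p = 0.13). Of 5 tested bHLH factors 2 were lower, both regulators of the iron deficiency response: bHLH104 had 166 and 126 units at 6 h, against 645 and 519.8 at 0 h. Its change was -1.96 ± 0.34. BHLH115 had 249 and 221 units at 6 h, against 1106 and 622 at 0 h. It fell by 1.80 ± 0.35. Their relatives bHLH34 and ILR3 had changes of 0.00 ± 0.36 and 0.45 ± 0.33. Among 11 tested bZIP factors bZIP44 fell by 1.58 ± 0.33 and BZIP60, of the unfolded protein response, by 1.02 ± 0.33, and BZIP60 lost its call without replicate 1 at 6 h (adjusted p = 0.1), without replicate 2 at 6 h (adjusted p = 0.155), and without replicate 1 at 0 h (adjusted p = 0.146). The list had 1 lower call with either 6 h array left out, and bZIP44 was called in each of the 4 fits. HAT2, an auxin-responsive homeobox factor, fell by 2.23 ± 0.55, a call lost without replicate 1 at 6 h (adjusted p = 0.0663). HIS1-3, a linker histone known from drought responses, had 13.8 and 30.2 units at 6 h, against 137 and 198 at 0 h. Its change was -2.72 ± 0.57 (at least 2.8-fold), in a list of 7 tested histones of which HTR12, the centromeric histone H3, and HTB1, an H2B, were higher (1.93 and 1.20). Their calls were lost without replicate 1 at 6 h for HTR12 (adjusted p = 0.303) and HTB1 (adjusted p = 0.171), without replicate 2 at 6 h for HTR12 (adjusted p = 0.0718), without replicate 1 at 0 h for HTR12 (adjusted p = 0.164), and without replicate 2 at 0 h for HTB1 (adjusted p = 0.0782).

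Most tested genes of ribosome production and tRNA processing were higher. In the list drawn up first, 3 of 4 tested ribosome assembly factors were higher and 0 lower. The longer list was shaped after values were seen, so its share of calls carries no test. Of 18 tested genes of rRNA and tRNA processing and ribosome assembly, in a list extended after values were seen, 15 were higher and 0 lower (median 2.49), against 14.1% of loci with a symbol, and 15 or 16 were higher whichever array was left out. AT3G09720, which encodes the RNA helicase RH57, had 833 and 802 units at 6 h, against 15.2 and 79.9 at 0 h. It rose by 4.31 ± 0.55 (adjusted p = 0.000161, limma). RBL, REBELOTE, a nucleolar protein, had 2072 and 1473 units at 6 h, against 85.8 and 141 at 0 h. Its change was 3.93 ± 0.35. AT5G14520, which encodes the pescadillo homologue PES of 60S assembly, had 6979 and 5762 units at 6 h, against 500.3 and 812 at 0 h. It rose by 3.30 ± 0.34. These 3 nucleolar genes read higher on both 6 h arrays than on both 0 h arrays, as did all probe sets called higher. PES was already well above the array medians at 0 h. YAO had 2911 and 1960.5 units at 6 h, against 340.0 and 202 at 0 h. Its change was 3.17 ± 0.36. IMP4, of the U3 particle, rose by 2.54 ± 0.31, and AT5G41190, which encodes NOB1 of late 18S rRNA cleavage, by 2.76 ± 0.30. The tRNase Z genes TRZ1 and TRZ3, which trim tRNA ends, rose by 2.27 ± 0.48 and 2.09 ± 0.34, and TRZ4 had a change of 0.86 ± 0.35. DIM1A, an rRNA dimethylase, rose by 1.79 ± 0.32, and its relative DIM1B had a change of 0.46 ± 0.36.

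Genes of RNA polymerases and RNA processing were also higher in part. In the list of RNA polymerase and Lsm subunits 14 of 18 tested genes were higher and 0 lower (median 1.74), but 7 without replicate 1 at 6 h. NRPA1 and NRPA2, the largest subunits of the polymerase that makes rRNA, rose: NRPA1 had 670.0 and 619 units at 6 h, against 124 and 107 at 0 h. It rose by 2.43 ± 0.32. NRPA2 had 3545 and 3544 units at 6 h, against 1077 and 607 at 0 h. Its change was 2.12 ± 0.38. NRPC2, of the polymerase that makes tRNA, rose by 1.79 ± 0.40. NRPB12, a small subunit, had 2508 and 2616 units at 6 h, against 746 and 445 at 0 h. It rose by 2.14 ± 0.33. NRPE7, a subunit of the polymerase of RNA-directed DNA methylation, rose by 2.78 ± 0.65 (at least 2.5-fold), a call lost without replicate 1 at 6 h (adjusted p = 0.0879). Of 28 tested genes of mRNA processing and export, a list added after values were seen that shares its Lsm genes with the one before, 15 were higher and 0 lower (median 1.15), but 7 without replicate 1 at 6 h and 8 without replicate 2 at 6 h. AT1G13030, which encodes coilin, the scaffold of Cajal bodies, had 584 and 648 units at 6 h, against 74.9 and 114 at 0 h. Its change was 2.67 ± 0.34. AtRZ-1b, a glycine-rich RNA-binding protein, rose by 2.16 ± 0.34, and LSM6B, of the ring that binds U6 RNA, by 1.78 ± 0.37.

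Protein folding genes of the cytosol and the plastid were higher in part. Of 14 tested co-chaperones and partners of HSP70 and HSP90 (16 on the array), in a list added after values were seen, 9 were higher and 0 lower, but 4 without replicate 1 at 6 h. Hsp70-2 had 1154 and 932 units at 6 h, against 124 and 104 at 0 h. It rose by 3.13 ± 0.38. BOB1, a small heat shock protein needed for meristems, had 2571 and 2492 units at 6 h, against 541 and 745 at 0 h. Its change was 1.99 ± 0.31. Hop1, which bridges HSP70 and HSP90, rose by 2.24 ± 0.51, and AT5G48570, which encodes the immunophilin ROF2, by 1.64 ± 0.39. Both lost their calls without replicate 1 at 6 h for ROF2 (adjusted p = 0.0848) and without replicate 2 at 6 h for Hop1 (adjusted p = 0.0637). The endoplasmic reticulum J-proteins ATERDJ2A, ATERDJ2B and ATERDJ3B had changes of -0.23 ± 0.37, -0.42 ± 0.41 and 0.24 ± 0.32, and no test set the compartments against each other. In plastids, Cpn60beta2, a chaperonin subunit, had 4909 and 4957 units at 6 h, against 2163 and 1492 at 0 h. It rose by 1.46 ± 0.32. Cpn60beta4 rose by 2.18 ± 0.60 (at least 2.7-fold), a call lost without replicate 1 at 6 h (adjusted p = 0.0961) and without replicate 2 at 6 h (adjusted p = 0.111). The pair of tested pentatricopeptide repeat genes, whose products process organelle RNA, were both higher: PPR596 had 3341 and 2705 units at 6 h, against 355 and 169 at 0 h. Its change was 3.59 ± 0.41. PPR336 rose by 2.22 ± 0.39. Pyrimidine supply was read from UPP, uracil phosphoribosyltransferase, which had 4299 and 3780.5 units at 6 h, against 305 and 228 at 0 h. It rose by 3.91 ± 0.32. PYRB, of pyrimidine synthesis, rose by 0.90 ± 0.31, a call lost without replicate 1 at 6 h (adjusted p = 0.201), without replicate 2 at 6 h (adjusted p = 0.115), without replicate 1 at 0 h (adjusted p = 0.118), and without replicate 2 at 0 h (adjusted p = 0.051).

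**Figure D4:**
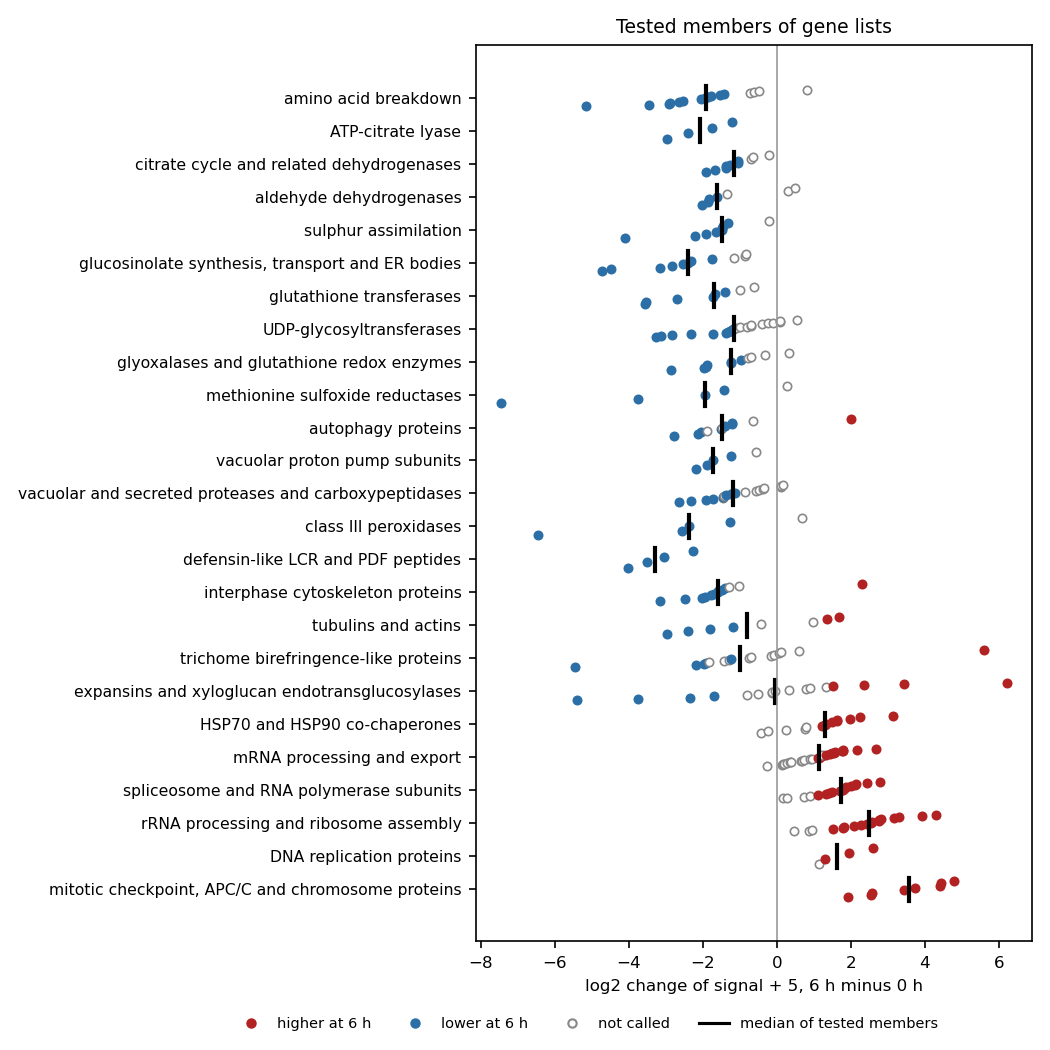
Log2 change (6 h minus 0 h, horizontal axis) of each tested member of 25 gene lists (rows); red points were called higher, blue points lower and open points neither, the black line is the median of the tested members, and vertical offsets within a row have no meaning. Metabolic and protective lists lie to the left (amino acid breakdown, median -1.91) and rRNA processing (2.49) and mitotic checkpoint genes (3.58) to the right, and families such as expansins and XTHs lie on both sides.

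Mitotic checkpoint and chromosome genes were higher, as were 3 of 4 tested replication genes. The list of kinesins and microtubule proteins had calls both ways, and chromatin and repair genes were higher in part. All 8 tested mitotic checkpoint and chromosome genes were higher (median 3.58), and 7 or 8 were whichever array was left out. AUR1, an Aurora kinase of the spindle, had 2163 and 2310.1 units at 6 h, against 124 and 77.3 at 0 h. Its change was 4.44 ± 0.36. The chromosome-binding proteins 3xHMG-box1 and 3xHMG-box2 rose by 4.42 ± 0.56 (at least 9.5-fold) and 4.80 ± 0.38. The 4 tested kinesins and microtubule proteins went both ways. KINESIN-12B, of the machinery that guides the new cell plate, had 466 and 562 units at 6 h, against 35.4 and 7.0 at 0 h. It rose by 4.55 ± 0.80 (at least 8.8-fold). KINESIN-13A rose by 0.95 ± 0.30, a call lost without replicate 1 at 6 h (adjusted p = 0.0825), without replicate 2 at 6 h (adjusted p = 0.173), and without replicate 2 at 0 h (adjusted p = 0.0739). The 2 lower members were ATMAP65-6 and the gene of WDL3, described above, and neither is a kinesin. The gene of WDL3 is also counted in the interphase list. TOPII, the topoisomerase that untangles sister chromosomes, had 1309 and 1525 units at 6 h, against 16.5 and 47.9 at 0 h. Its change was 5.39 ± 0.48 (at least 24.4-fold), the only gene of the repair list called in every fit. In that list, added after values were seen, 5 of 17 tested members of 24 on the array were higher, a count of 3 without replicate 1 at 6 h, 1 without replicate 2 at 6 h and 2 without replicate 2 at 0 h, and TOP3A, UNG, EME1A and ATMND1 lost their calls without replicate 1 at 6 h for TOP3A (adjusted p = 0.0739) and UNG (adjusted p = 0.217), without replicate 2 at 6 h for TOP3A (adjusted p = 0.0858), UNG (adjusted p = 0.0655), EME1A (adjusted p = 0.248) and ATMND1 (adjusted p = 0.175), without replicate 1 at 0 h for UNG (adjusted p = 0.0553), and without replicate 2 at 0 h for TOP3A (adjusted p = 0.0838), EME1A (adjusted p = 0.117) and ATMND1 (adjusted p = 0.0871). Of 4 tested replication genes 3 were higher: PRL, the MCM7 subunit of the replicative helicase, had 2014 and 1823 units at 6 h, against 322 and 304 at 0 h. It rose by 2.59 ± 0.30. POLA3, of the primase complex, rose by 1.94 ± 0.38, and ICU2, the catalytic subunit of polymerase alpha, by 1.30 ± 0.45, and ICU2 lost its call without replicate 1 at 6 h (adjusted p = 0.164), without replicate 2 at 6 h (adjusted p = 0.15), and without replicate 2 at 0 h (adjusted p = 0.141). Of 15 tested chromatin remodelling genes (20 on the array, a list added after values were seen) 6 were higher and 0 lower, but 2 without replicate 1 at 6 h and 3 without replicate 2 at 6 h. ASF1B, a histone chaperone, had 492 and 504 units at 6 h, against 150.1 and 170.4 at 0 h. Its change was 1.61 ± 0.34. CHR17, of the ISWI class of remodellers, rose by 1.53 ± 0.32. INO80, another remodeller, had a change of -0.73 ± 0.42.

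Auxin response genes were high at 6 h. Of 5 tested genes 4 were higher and 0 lower. IAA29, an Aux/IAA repressor, had 4894 and 2096 units at 6 h, against 498 and 234 at 0 h. It rose by 3.21 ± 0.45. IAA30 rose by 3.14 ± 0.61, and WES1, which conjugates auxin to amino acids, by 2.00 ± 0.32. WAG2, a kinase that directs auxin transporters, rose by 1.53 ± 0.49, a call lost without replicate 1 at 6 h (adjusted p = 0.199), without replicate 2 at 6 h (adjusted p = 0.0599), and without replicate 2 at 0 h (adjusted p = 0.178), and IAA18 had a change of 0.05 ± 0.47. IAA20 lay below the filter on mean signal, with 392 and 378 units at 6 h, against 8.5 and 3.3 at 0 h. Fitted without the filter, it was at least 6.6-fold higher (adjusted p = 0.000428, limma). Among transcription factors of lateral root formation, PUCHI was up by 6.35 ± 0.43 and LBD29 by 2.06 ± 0.41.

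Some families of the wall and the cytoskeleton had members called in both directions. Over loci with a symbol 14.1% were higher and 23.3% lower, so calls both ways in a list need not stand out from the background. Expansins loosen walls and XTH enzymes cut and rejoin xyloglucan, and of 17 tested members (29 on the array) 4 were higher and 4 lower (median -0.05). XTH21 had 2.1 and 13.2 units at 6 h, against 490.0 and 455 at 0 h. Its change was -5.39 ± 0.62 (at least 8.1-fold). EXLB1, an expansin-like protein, had 135 and 252 units at 6 h, against 2253 and 2947 at 0 h. It fell by 3.77 ± 0.40. EXPA20 had 772 and 813 units at 6 h, against 161 and 139 at 0 h. Its change was 2.37 ± 0.31. EXPA15 (3.44) and EXPA4 (6.21) were called higher too. EXLA2 (1.53) and EXPA9 (-1.70) lost their calls without replicate 1 at 6 h for EXLA2 (adjusted p = 0.0658) and EXPA9 (adjusted p = 0.131), without replicate 2 at 6 h for EXLA2 (adjusted p = 0.064), and without replicate 2 at 0 h for EXPA9 (adjusted p = 0.0868). The 9 members not called had changes between -0.80 (EXGT-A3) and 1.34 (XTH33), XTH18 and XTH19 being at -0.12 and -0.05. The median of the list near 0 thus hides calls in both directions.

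Trichome birefringence-like (TBL) proteins, several of which acetylate wall polysaccharides, had 1 higher and 5 lower members of 16 tested. TBL36 had 7200.3 and 8814 units at 6 h, against 146 and 174 at 0 h. It rose by 5.60 ± 0.34. TBL38 had 20.6 and 14.7 units at 6 h, against 1316 and 739 at 0 h. Its change was -5.46 ± 0.43 (at least 17.0-fold). TBL30 fell by 2.19 ± 0.47 (at least 2.9-fold). The calls of TBL37, TBL28 and TBL39 were lost without replicate 1 at 6 h for TBL37 (adjusted p = 0.0624), without replicate 2 at 6 h for TBL28 (adjusted p = 0.112) and TBL39 (adjusted p = 0.102), without replicate 1 at 0 h for TBL28 (adjusted p = 0.147), and without replicate 2 at 0 h for TBL39 (adjusted p = 0.0614), and the list had 4 lower calls in each of those fits. Of 5 tested GH9 endoglucanases, which cut wall glucans, 3 were higher and 1 lower. GH9B13 had 707 and 1592 units at 6 h, against 212 and 118 at 0 h. It rose by 2.70 ± 0.48. GH9C2 rose by 1.78 ± 0.38, GH9B8 rose by 1.75 ± 0.45 and GH9B7 fell by 0.95 ± 0.33. Both of the last lost their calls without replicate 1 at 6 h for GH9B8 (adjusted p = 0.083) and GH9B7 (adjusted p = 0.134), without replicate 2 at 6 h for GH9B7 (adjusted p = 0.17), without replicate 1 at 0 h for GH9B7 (adjusted p = 0.103), and without replicate 2 at 0 h for GH9B8 (adjusted p = 0.0651) and GH9B7 (adjusted p = 0.0679). Among 8 tested tubulins and actins 2 were higher and 4 lower. TUB1 had 46.4 and 70.8 units at 6 h, against 335 and 701 at 0 h. Its change was -2.97 ± 0.46. TUB5 had 206 and 122 units at 6 h, against 954 and 789.6 at 0 h. It fell by 2.42 ± 0.36. TUB7 had 2245 and 2242 units at 6 h, against 942 and 512 at 0 h. Its change was 1.69 ± 0.35. Tubulin genes are close in sequence, and how far their probe sets read each other was not tested. TUA1 (1.36), TUB6 (-1.18) and ACT11 (-1.82, at least 3.1-fold) lost their calls without replicate 1 at 6 h for TUA1 (adjusted p = 0.101), TUB6 (adjusted p = 0.0763) and ACT11 (adjusted p = 0.0776), without replicate 2 at 6 h for TUA1 (adjusted p = 0.0921), TUB6 (adjusted p = 0.0514) and ACT11 (adjusted p = 0.0563), and without replicate 1 at 0 h for ACT11 (adjusted p = 0.075), and the counts were then 1 higher and 2 lower with either 6 h array left out.

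Peptide and calmodulin-binding families also had calls both ways, to be read against the same background. Of 5 tested RALF and CLE peptides 2 were higher and 1 lower. RALFL32, of the RALF peptides that alkalise the wall space, had 102 and 211 units at 6 h, against 843 and 889 at 0 h. It fell by 2.52 ± 0.37. RALFL34 had 1192 and 1701 units at 6 h, against 392 and 216 at 0 h. Its change was 2.27 ± 0.39. CLE44, a signalling peptide of the vascular tissue, rose by 1.90 ± 0.68 (at least 2.0-fold), a call lost without replicate 1 at 6 h (adjusted p = 0.167), without replicate 2 at 6 h (adjusted p = 0.169), and without replicate 2 at 0 h (adjusted p = 0.194), and its relative CLE41 had a change of -0.20 ± 0.63. Of 8 tested IQ-domain proteins, scaffolds that bind calmodulin and microtubules, 2 were higher and 2 lower. The member iqd15 had 624 and 648 units at 6 h, against 74.2 and 124 at 0 h. It rose by 2.66 ± 0.36. The calls of IQD31 (1.19), IQD30 (-1.65) and IQD23 (-1.17) were lost without replicate 1 at 6 h for IQD31 (adjusted p = 0.076), IQD30 (adjusted p = 0.121) and IQD23 (adjusted p = 0.153), without replicate 2 at 6 h for IQD31 (adjusted p = 0.124), without replicate 1 at 0 h for IQD31 (adjusted p = 0.114), and without replicate 2 at 0 h for IQD30 (adjusted p = 0.0509) and IQD23 (adjusted p = 0.0602). Of 4 tested myosins 1 was higher, XI-I (1.47), which ties the nucleus to actin, and that call was lost without replicate 2 at 6 h (adjusted p = 0.0927). The TBL, GH9, peptide, IQ-domain and myosin lists were added after values were seen.

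**Figure D5:**
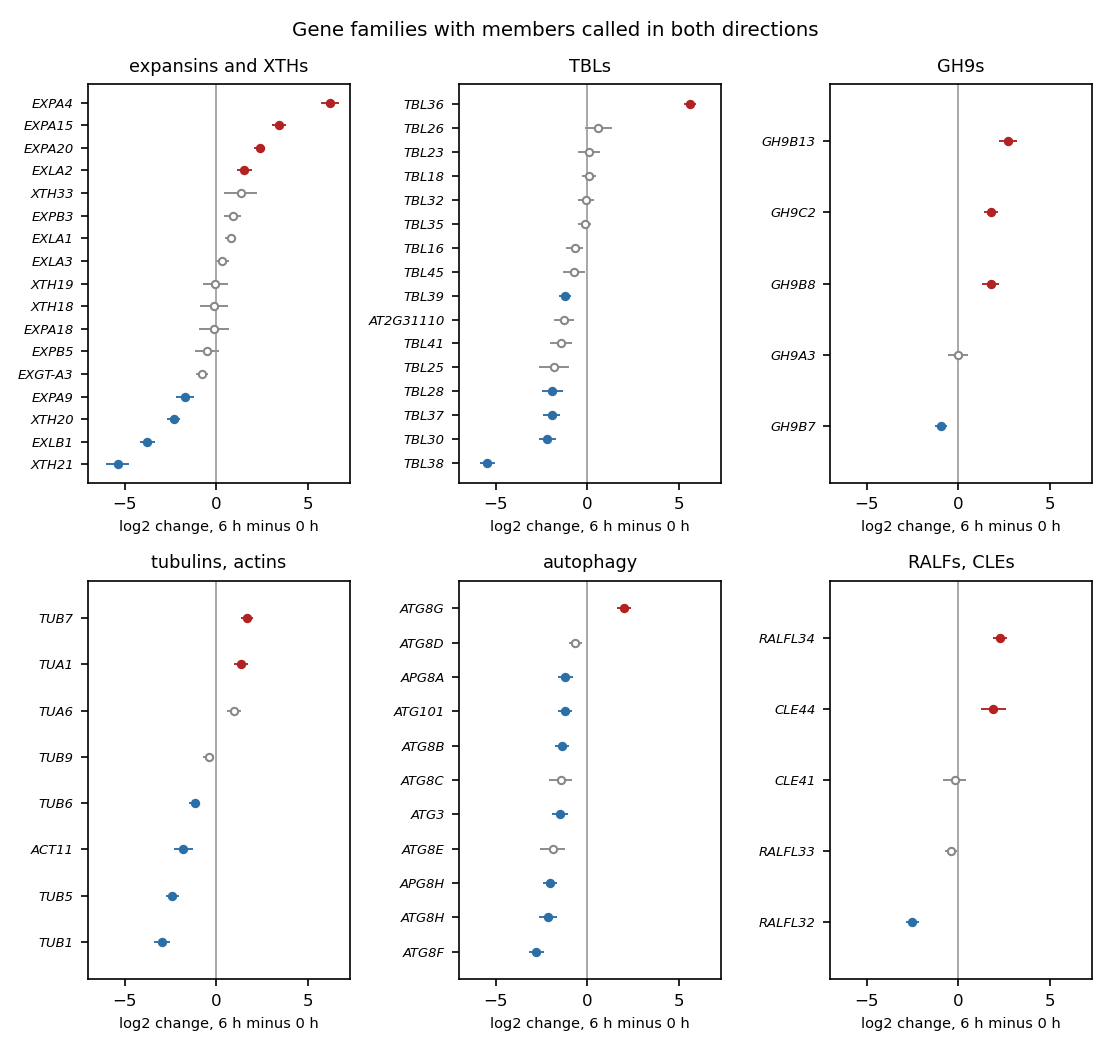
Log2 change (6 h minus 0 h, horizontal axis, with bars of 1 moderated SE of the fit, n = 2 arrays in each group) of the tested members of 6 families, sorted within each panel. Red points were called higher, blue points lower and open points neither. Each panel has members on both sides, such as EXPA4 (6.21) and XTH21 (-5.39), TBL36 (5.60) and TBL38 (-5.46), and ATG8G (2.00) and ATG8F (-2.78).

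The 2 h arrays place some of these losses in time, as levels only and with no test, since they share the 0 h arrays. PRX72 read 5196 and 3809.6 units (0 h), 4262 and 4205 (2 h), 328 and 2.6 (6 h). LCR68 read 5519 and 4310.1 units (0 h), 3996 and 3842 (2 h), 351 and 250.1 (6 h). GSO1 read 601 and 829 units (0 h), 553 and 1212 (2 h), 75.6 and 26.1 (6 h). These 3 were still at or near their 0 h levels at 2 h and low at 6 h. By contrast XTH21 read 490.0 and 455 units (0 h), 52.7 and 81.5 (2 h), 2.1 and 13.2 (6 h). EXLB1 read 2253 and 2947 units (0 h), 240.0 and 420.5 (2 h), 135 and 252 (6 h), and TUB5 read 954 and 789.6 units (0 h), 299 and 370.2 (2 h), 206 and 122 (6 h). Their levels at 2 h were already much below those at 0 h. On the gaining side PES read 500.3 and 812 units (0 h), 3978 and 3659 (2 h), 6979 and 5762 (6 h), with most of its rise reached at 2 h, whereas AUR1 read 124 and 77.3 units (0 h), 85.3 and 126 (2 h), 2163 and 2310.1 (6 h) and was bright at 6 h alone.

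The 54 lists of functions drawn up first came from the labels and textbook knowledge, but with earlier results of these data already known. Of the 54, 8 had no member on a probe set with 1 gene and 3 had members but none tested. This left 43 that gave a value, and 26 had 3 or more tested members. Cyclins and CDKs, laccases and NAC factors were among those with no tested member. The 29 lists added after values were seen each had 3 or more. In all 757 loci stood in 1 or more lists, of which 501 were tested, and 112 of these were higher and 164 lower. Cell cycle entry is therefore described here by chromosome, spindle and replication genes and not by cyclins. Single genes of thin lists were CHIL, of flavonoid synthesis, which fell by 1.57 ± 0.43 and lost its call without replicate 2 at 6 h (adjusted p = 0.115) and without replicate 1 at 0 h (adjusted p = 0.094), PGY1, a ribosomal protein, which rose by 1.87 ± 0.32, KEU, of cytokinesis, with a change of -0.77 ± 0.37, and ALATS, an alanyl-tRNA synthetase, with 0.57 ± 0.36.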

How the data were processed

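The authors deposited 1 table of linear signal intensities, with a value per probe set and array. MAS5 is the tool named in the submitters' processing notes, without a version. The trimmed mean (2% cut at either end) was 250.0 on each array, and this scaling by the authors was kept. For replicate 1 at 2 h the authors also deposited detection p-values and calls, which served only to set the dim level of 58 units.

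Signals were analysed as log2(signal + 5). From the 22810 probe sets the 64 control probe sets were dropped. Those with a mean above the 40th percentile were tested (13647) and 9099 were not. All 6 arrays entered 1 fit of 3 group means in limma 3.58.1 (lmFit and trended eBayes) under R 4.3.3, with 3 residual degrees of freedom. The contrast was 6 h minus 0 h, and the Benjamini-Hochberg threshold was 0.05. All adjusted p-values come from limma. Arrays have no read depth, so their number limits the precision, and p-values measure only the spread between these arrays. The fit was tested on simulated data with 200 of 13647 probe sets changed. It recovered 0% of changes of 1 log2 unit, 16% of 2 and 78% of 4, with 10 false calls at the largest size. In the data 33.8% of probe sets were called, so the setting differs and these shares do not carry over. A gene that was not called is not thereby shown to be unchanged.

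Names came from GEO's platform annotation, updated through the TAIR10.1 gene table. Of 13513 probe sets with 1 gene 13436 matched a locus, and of the tested ones 7429 did, covering 7387 loci. Each locus was read from its brightest probe set on average, and no sequence or coordinate was used. Cell type markers served only for the check of the label. Genes were named by a rule: called, with 1 locus and without overlap, the 15 largest gains and losses of signal, the 15 largest rises and falls by log2 change at a mean of 500 units or more, and up to 4 called members of each list in each direction. Genes of the lists added after values were seen, and those under other observations, were chosen after their values were seen. The members and lists were chosen with earlier results of these data known.

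Alternatives were other pseudocounts and filters, quantile normalization, centring, eBayes without trend or robust, blocks for the replicate number and for the brightness of hybridisation controls, a 4-array fit, an added 2-fold minimum and leaving out each array. Same-numbered arrays deviated together weakly (r of the replicate differences 0.105 between 6 h and 0 h, 0.153 between 6 h and 2 h, and 0.057 between 2 h and 0 h), so the numbers were not taken to pair them.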

Additional observations from a re-analysis of the deposited data

How the results depend on the processing

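Leaving out 1 array had the largest effect on the calls: probe sets higher at 6 h numbered 1480 to 2295, against 2297 with all arrays, and probe sets lower 1547 to 2165, against 2315. The low end of the higher calls came without replicate 1 at 6 h (1480) and that of the lower calls without replicate 2 at 6 h (1547). A group then has 1 array, which is assumed to vary like the other groups. Centring each array on its median gave 2322 higher and 1726 lower. Higher calls thus hardly moved from 2297, whereas lower calls came down from 2315 to 1726, so the losses depended more on this choice. The replicate number as a block gave 2481 higher and 2625 lower, and, since the numbers do not pair the arrays, says nothing about single genes. Over the other alternatives the counts ran between 1955 and 2424 higher and between 1979 and 2436 lower. Of 348 genes named by the rule or called in a list, 103 missed the threshold without replicate 1 at 6 h, 84 without replicate 2 at 6 h, 46 without replicate 1 at 0 h and 65 without replicate 2 at 0 h. Centring ended 39 calls, no filter 36, no intensity trend 32, the 4-array fit 31, the hybridisation control block 24, quantile normalization 13, the added 2-fold minimum 6, the smaller pseudocount 4, the replicate block 3 and robust eBayes 2. None of the 348 genes changed direction in these alternatives. The filter at the 60th percentile tested 281 of them and ended 0 calls among those. Depth has no counterpart on arrays, and low signal limits the size of a change, which is why dim transcripts have a bound beside the fitted value.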

Other observations

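Single genes not described above were also called, and those given here were picked after their values were seen, so that no count or theme goes with them. Among lower calls SDP1, the lipase that opens the breakdown of stored oil, had 146 and 105 units at 6 h, against 322 and 442 at 0 h. Its change was -1.57 ± 0.36, a call lost without replicate 2 at 6 h (adjusted p = 0.0542). AIM1, a multifunctional enzyme of fatty acid beta-oxidation, had 209 and 186 units at 6 h, against 1588 and 1149 at 0 h. It fell by 2.74 ± 0.33 (adjusted p = 0.000117, limma). ACS, acetyl-CoA synthetase, fell by 1.49 ± 0.30. DPE1, which works on the maltodextrins of starch breakdown, fell by 1.83 ± 0.37, and FDH, formate dehydrogenase, had 57.6 and 31.8 units at 6 h, against 444 and 511 at 0 h. Its change was -3.33 ± 0.41 (at least 8.2-fold). AKINBETA1, a subunit of the SnRK1 kinase that responds to low energy, fell by 1.74 ± 0.35. BAT1, which acylates brassinosteroids, had 379 and 447 units at 6 h, against 3814 and 2762 at 0 h. It fell by 2.96 ± 0.32. GI, of the circadian clock, fell by 1.73 ± 0.34. The arrays of 6 h and 0 h did not overlap for any of these genes, which holds for nearly all calls.

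Higher calls, picked in the same way, are likewise single values. SHI, a zinc finger factor of organ development, had 457 and 330.2 units at 6 h, against 64.5 and 7.6 at 0 h. Its change was 3.73 ± 0.71. LAS, a GRAS factor of axillary meristems, had 401 and 332 units at 6 h, against 40.6 and 105 at 0 h. It rose by 2.38 ± 0.45. AGO7, the Argonaute protein of the trans-acting siRNA pathway that tunes auxin response factors, had 159.8 and 196 units at 6 h, against 5.7 and 8.6 at 0 h. Its change was 3.91 ± 0.54 (at least 3.0-fold). BRL1, a brassinosteroid receptor of the vascular tissue, had 1448 and 1339 units at 6 h, against 173 and 144 at 0 h. It rose by 3.10 ± 0.30. EXO, a gene that brassinosteroids induce, had 2572 and 2403 units at 6 h, against 496 and 204 at 0 h. Its change was 2.94 ± 0.43. Haspin, which phosphorylates histone H3 in mitosis, rose by 2.44 ± 0.47 (at least 5.1-fold), and FU, the FUSED kinase of cytokinesis, by 1.63 ± 0.34. SEH1H, a nucleoporin, rose by 2.40 ± 0.44, and MAP1A and MAP1C, which remove the first methionine of new proteins, by 1.67 ± 0.31 and 1.62 ± 0.33. Some probe sets below the filter on mean signal stand outside the counts, and a fit without the filter was used for them. SCPL34 had 2.2 and 3.6 units at 6 h, against 214 and 177 at 0 h, at least 3.4-fold lower against the floor of 58 units (adjusted p = 0.000932, limma). CYP71B28 had 14.6 and 2.6 units at 6 h, against 174 and 189.9 at 0 h, at least 3.1-fold lower (adjusted p = 0.00305, limma).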
